A study of Drosophila melanogaster with 2 samples.

Results

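The genes described here encode the core machinery that removes introns from messenger RNA (mRNA) and forms its 3′ end, together with the exon junction complex core and the mRNA export receptor. They were taken from a list of 38 symbols, of which 37 were found in the annotation, out of 13968 protein-coding genes and 18277 genes in all. The missing symbol was SmG, which was dropped. The series mapped the protein of the gene CG3847 by chromatin immunoprecipitation and sequencing (ChIP-seq) in whole Drosophila melanogaster embryos aged 0 to 24 h. The transgenic embryos carried a CG3847-eGFP fusion, chromatin was sonicated to 200 to 800 bp, and an anti-GFP antibody was used. There was 1 group with 2 biological replicates and no other condition, and control libraries were not used here, so peaks that depend on the fusion were not separated from those that do not. How the transgene is driven in the embryo is not stated in the labels, and whole embryos mix all tissues and a day of development.

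Introns are removed by the spliceosome, which assembles on each intron from small nuclear ribonucleoproteins (snRNPs). U1 marks the 5′ splice site, U2AF and U2 mark the 3′ splice site and the branch point, and the U4/U6.U5 tri-snRNP completes the machine before catalysis. Downstream of the coding sequence, the CPSF and CstF complexes recognise the polyadenylation signal and cut the transcript, after which the poly(A) tail is added. These genes are used in nearly every cell, and in Drosophila such genes often start close to a neighbour that is read in the opposite direction.

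Of the 37 genes, 27 (73.0%) had a promoter peak in the optimal peak set, which pools both replicates. A promoter peak is a peak whose summit lay within 500 bp of any annotated transcription start site (TSS) of the gene, and 31.0% of all protein-coding genes had one. All sets hold peaks that passed an irreproducible discovery rate (IDR) of 0.01, a measure of how alike peaks rank in 2 sets of data. In the conservative set 25 genes (67.6%) had a promoter peak, against 30.3% of protein-coding genes. In the set of replicate 1 alone there were 16 (43.2%), against 23.8% of protein-coding genes, and in that of replicate 2 there were 24 (64.9%), against 26.4%. The members' share was above that of protein-coding genes in each of these sets. Both replicate sets held a promoter peak at 14 of the genes (37.8%), against 21.1% of protein-coding genes. These shares were compared as a description, with no test.

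The promoter peaks of the splicing and 3′ processing genes were frequent but not strong. Signal, the value that the peak caller gave each peak, had a median of 139 at the 27 genes (quartiles 112 and 182), against 173 at the 4330 protein-coding genes with a promoter peak (quartiles 113 and 290). The highest value was 448 among these genes and 3800 among protein-coding genes. Signal has no stated scale, so levels were compared within a list, and ratios between the replicates' lists were read only beside the same ratios at protein-coding genes. The sequences under 5 of the strongest of these peaks are printed here, because they carry the highest signals of the machinery. They were read from the RefSeq Release 6 genome, which is the dm6 build of all coordinates given here. They cover 200 bp at the summit in the direction of the gene, cut where a UTR began, so that the stretch at U2af50 does not contain its summit. Capitals mark words among DRE (TATCGATA), the BEAF-32 core (CGATA, which DRE contains), the M1BP motif (GGTCACACT) and the Ohler 6 core (GTATTTTT). CstF64 held GTATTTTT and SF2 held TATCGATA, while the stretches of U2af50, Clp and SC35 held none of these words.
U2af50 (X:16359062-16359142, minus strand): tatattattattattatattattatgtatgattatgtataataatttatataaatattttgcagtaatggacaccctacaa
CstF64 (3R:18659310-18659481, plus strand): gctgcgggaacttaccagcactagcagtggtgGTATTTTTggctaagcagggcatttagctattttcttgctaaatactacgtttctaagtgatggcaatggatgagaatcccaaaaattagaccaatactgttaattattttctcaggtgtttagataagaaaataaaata
SF2 (3R:16342033-16342232, minus strand): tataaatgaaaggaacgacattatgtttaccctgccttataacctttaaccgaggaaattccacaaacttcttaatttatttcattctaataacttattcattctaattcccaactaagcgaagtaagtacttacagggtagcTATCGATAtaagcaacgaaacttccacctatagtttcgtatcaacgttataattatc
Clp (2L:819736-819935, plus strand): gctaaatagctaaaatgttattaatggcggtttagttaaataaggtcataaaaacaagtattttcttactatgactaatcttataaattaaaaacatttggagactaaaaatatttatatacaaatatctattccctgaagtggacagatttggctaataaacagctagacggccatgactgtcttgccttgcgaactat
SC35 (2L:12434228-12434427, minus strand): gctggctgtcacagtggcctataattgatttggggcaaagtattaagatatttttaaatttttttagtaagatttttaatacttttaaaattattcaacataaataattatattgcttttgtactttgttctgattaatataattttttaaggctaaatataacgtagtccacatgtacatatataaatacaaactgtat

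**Figure D1:**
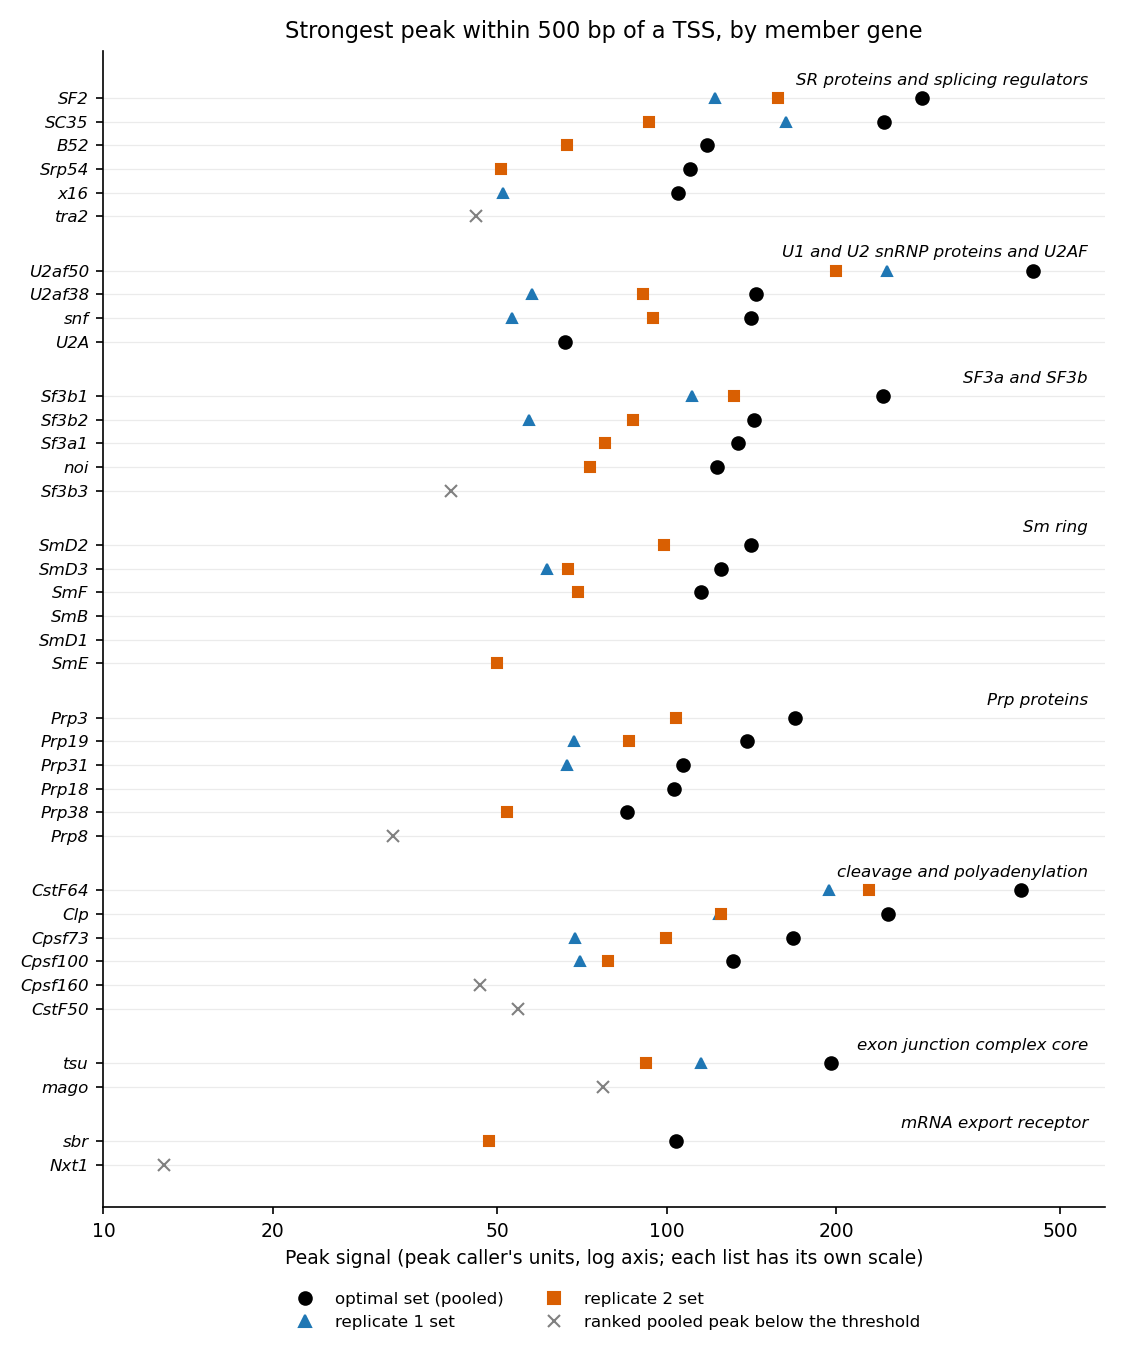
Signal of the strongest peak within 500 bp of a TSS (horizontal log axis, peak caller's units) for each of the 37 genes, grouped by role. Circles are the optimal set, triangles replicate 1, squares replicate 2, and crosses the highest pooled signal among ranked peaks that did not reach the optimal set; U2af50 (448) and CstF64 (426) stand furthest to the right, and SmB and SmD1 have no symbol.

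Among the SR proteins and splicing regulators, which bind exonic enhancers and help to choose splice sites, 5 of 6 had a promoter peak. SF2, the fly counterpart of human SRSF1 (FBgn0283477, 3R:16338943-16341988, minus strand), had the strongest, at 3R:16341937-16342326. Its signal was 284 in the optimal set, 122 in replicate 1 and 158 in replicate 2, with the summit 144 bp upstream of the TSS between SF2 and pad. SC35, the counterpart of human SRSF2 (FBgn0265298, 2L:12431075-12434665, minus strand), had 243 in the optimal set, 163 in replicate 1 and 93.1 in replicate 2. Its optimal peak at 2L:12434282-12434468 lay in an intron of SC35 itself, 289 bp upstream of the nearer of its 2 TSSs. It shared the start region of eRF3, a translation termination factor gene. The 93.1 in replicate 2 had its summit elsewhere, 91 bp from a TSS of SC35. A weaker replicate 2 peak, of 77.4, had its summit 295 bp from one. B52, another SR protein gene, had 118, with a peak in the set of replicate 2 (66.6) and none in that of replicate 1 or in the conservative set. Srp54 had 110, with 50.8 in the set of replicate 2 only and a ranked peak of 50.7 below the threshold in replicate 1. Here and below, "only" refers to the replicate sets past the threshold. The SR protein gene x16 had 105, with 51.2 in replicate 1 only, under a peak that it shared with Hrb27C, an hnRNP gene. No promoter peak was called at tra2, the splicing regulator of sex determination.

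All 4 genes for the U1 and U2 snRNP proteins and U2AF had a promoter peak. U2af50 encodes the U2AF subunit that binds the polypyrimidine tract (FBgn0005411, X:16356696-16359039, minus strand), and it carried the strongest peak of the 37 genes, with 448 in the optimal set, 246 in replicate 1 and 200 in replicate 2. That peak, at X:16359050-16359283, had its summit 122 bp upstream of U2af50 and inside the 5′ UTR of the divergent gene PIG-Q. U2af38, whose protein reads the AG at the 3′ splice site (FBgn0017457, 2L:292959-294681, minus strand), had 144 in the optimal set, 57.6 in replicate 1 and 90.9 in replicate 2. Its peak at 2L:294898-295287 lay 412 bp upstream, nearer to Stip1, whose TSS is 441 bp from that of U2af38. The gene snf, which encodes the fly protein that serves both U1 and U2, had 141 in the optimal set, 53.2 in replicate 1 and 94.7 in replicate 2. U2A, a U2 snRNP protein gene, had the lowest signal of the 27 genes, 66.0, and was called in neither replicate set.

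In the SF3a and SF3b complexes, which hold U2 on the branch point, 4 of 5 genes had a promoter peak. Sf3b1 encodes the subunit that clamps the branch point (FBgn0031266, 2L:568340-572907, plus strand), and its peak at 2L:568061-568450 had 242 in the optimal set, 111 in replicate 1 and 132 in replicate 2, 84 bp upstream of the TSS and shared with Nle. Sf3b2 had 143 (56.9 in replicate 1 and 87.0 in replicate 2), Sf3a1 had 134 (77.6 in replicate 2 only) and noi, another SF3a subunit gene, had 123 (73.2 in replicate 2 only). Sf3b3 had none within 500 bp, and its nearest optimal summit was 676 bp upstream with a signal of 99.8.

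The Sm proteins form the ring around the snRNA of each spliceosomal snRNP, and 3 of 6 of their genes had a promoter peak. SmD2 had 141, with 99.0 in replicate 2 only. SmD3 had 125, with 61.4 in replicate 1 and 66.7 in replicate 2, and its summit lay in an intron of Oda, the neighbouring gene. SmF had 115, with 69.5 in replicate 2 only, and its optimal summit lay in introns of CG13175 and CG33964. SmB, SmD1 and SmE had no promoter peak in the optimal set. The dropped symbol SmG is a synonym of SNRPG in RefSeq (FBgn0261791, X:16639810-16640419), and SNRPG had a promoter peak of 415 in the optimal set, 227 in replicate 1 and 184 in replicate 2, which is above every Sm gene counted here.

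Of the 6 Prp genes, named after yeast mutants in pre-mRNA processing, 5 had a promoter peak. Prp3, a U4/U6 snRNP protein gene (FBgn0036915, 3L:19910300-19912504, plus strand), had 169 in the optimal set and 104 in replicate 2, with none in the set of replicate 1. Its peak at 3L:19910082-19910471 had the summit 23 bp upstream of Prp3 and within 500 bp of Mi-2, a chromatin remodeller gene. Prp19, which encodes the ubiquitin ligase of the spliceosome, had 139, with 68.6 in replicate 1 and 85.8 in replicate 2. Prp31, also a U4/U6 protein gene, had 107 (66.5 in replicate 1 only), Prp18 had 103 (in neither replicate set) and Prp38 had 85.2 (52 in replicate 2 only). Prp8, the gene for the protein at the catalytic centre of the spliceosome, had none.

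For cleavage and polyadenylation, 4 of 6 genes had a promoter peak, with the highest median signal (207) of the 6 groups with more than 2 genes. CstF64, whose protein binds the GU-rich element downstream of the cut (FBgn0027841, 3R:18659618-18661126, plus strand), had 426 in the optimal set, 194 in replicate 1 and 229 in replicate 2. Its peak at 3R:18659243-18659531 lay 237 bp upstream, between CstF64 and CG31224. Clp, the fly gene for the CPSF30 zinc finger subunit (FBgn0015621, 2L:819964-821209, plus strand), had 247 in the optimal set, 124 in replicate 1 and 125 in replicate 2, at 2L:819640-820029, 129 bp upstream and shared with PGAP2. Cpsf73, which encodes the endonuclease (FBgn0261065, 3R:18661121-18663552, minus strand), had 168 in the optimal set, 68.9 in replicate 1 and 99.6 in replicate 2, at 3R:18663430-18663819, 73 bp upstream and shared with the SNARE gene Gos28. Cpsf100, the catalytically inactive partner of the endonuclease, had 131 in the optimal set, 408 bp upstream. That summit was nearer to beta4GalNAcTB, whose TSS is 565 bp from that of Cpsf100. A weaker optimal peak of 103 at Cpsf100 had its summit nearer to its own TSS, 73 bp upstream. The strongest peak within 500 bp of the TSS had 70.1 in replicate 1 and 78.7 in replicate 2. The replicate 1 summit was 82 bp from the TSS, so that value does not belong to the summit 408 bp upstream. All 4 genes were in both replicate sets. Cpsf160 and CstF50 had no promoter peak.

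The exon junction complex is left on mRNA just upstream of each spliced junction, and sbr (NXF1) with Nxt1 carries mRNA through the nuclear pore. In both pairs 1 of the 2 partners had a promoter peak. At tsu (Y14; FBgn0033378, 2R:9110799-9111578, plus strand) the signal was 196 in the optimal set, 115 in replicate 1 and 92.1 in replicate 2, in a peak of 2R:9110700-9110819 with the summit 27 bp upstream. At sbr it was 104, with 48.4 in replicate 2 only. The partners mago and Nxt1 had none in the optimal set.

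The summits of the strongest promoter peaks lay upstream of the nearest TSS at all 27 genes (100%), against 87.9% of the protein-coding genes with a promoter peak. Their median position was -83 bp relative to the TSS (quartiles -134 and -49), against -93 bp for protein-coding genes (quartiles -181 and -37). The nearest to a TSS was at Sf3b2, 19 bp upstream, and the furthest were at U2af38 and Cpsf100. With the most upstream TSS of each gene in place of any TSS, 96.3% were upstream, because the SC35 summit is inside the gene.

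**Figure D2:**
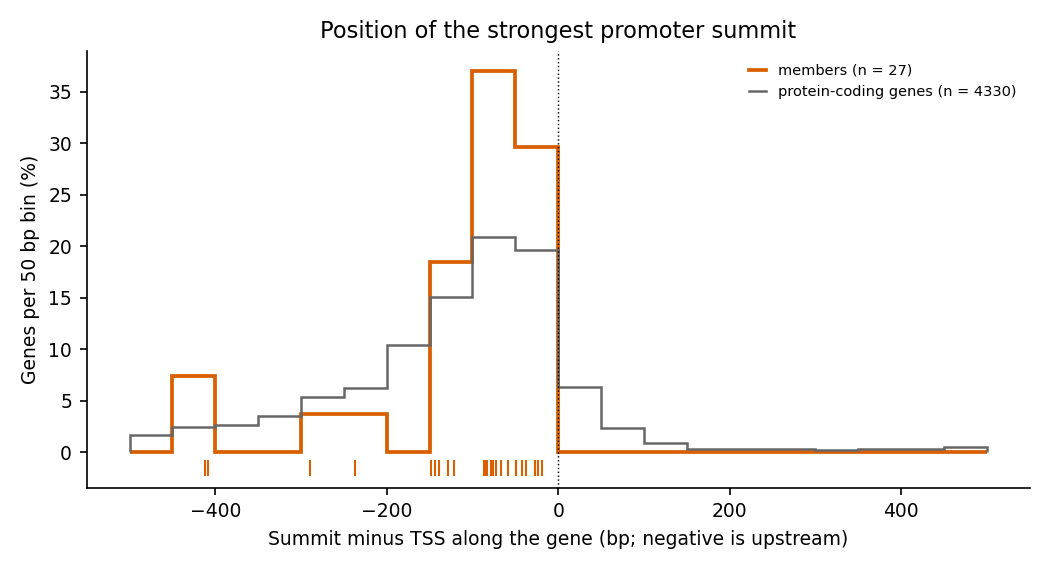
Position of the strongest promoter summit relative to the nearest TSS (bp along the gene, negative is upstream), as the percentage of genes in each 50 bp bin. The thick line and the ticks are the 27 splicing and 3′ processing genes and the thin line is the 4330 protein-coding genes with a promoter peak; all 27 ticks are left of 0, with a median of -83 bp.

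Peak summits inside these genes were few in the optimal set and in that of replicate 1. When any base of a peak counted, 24 of the 37 genes had a peak in the span. The share of protein-coding genes under that rule is not given here. In the optimal set 1 gene (2.70%), SC35, had a summit between its first and last annotated base, against 15.4% of protein-coding genes. None had one that was also more than 500 bp from its own TSSs, against 8.83%. In replicate 1 SC35 was again the only such gene (2.70%), against 11.6% of protein-coding genes. In replicate 2 there were 5 (13.5%), against 11.2%. They were SmF (69.5), SC35 (2 peaks, 93.1 and 77.4), SmE (50.01, in its 5′ UTR), SmD3 (7.74, in coding sequence that lies within an intron of Oda) and x16 (47.3). The summit at x16 lay in a coding exon 5101 bp from its TSS while the others lay within 500 bp of a TSS of their own gene. The median gene length was 2039 bp for the 37 genes, against 2164 bp for protein-coding genes, and the upper quartile was 3046 bp, against 4999 bp. The part of gene length in these counts was not tested.

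Most of these promoters face another gene. A protein-coding TSS in the opposite direction lay within 1000 bp upstream of 32 of the 37 genes (86.5%), against 36.2% of protein-coding genes. The median distance between the paired TSSs was 282 bp, against 298 bp for protein-coding genes with such a partner. Of the 27 promoter peaks, 23 (85.2%) had their summit within 500 bp of a TSS of another protein-coding gene, against 57.9% of the protein-coding genes with a promoter peak, and such a peak cannot be given to 1 gene of the pair. The exceptions were B52, U2A, SmF and tsu. Partners included Cdk7 at snf, Vha26 at noi, Msh6 at Prp31 and shrb at Prp38, whose TSSs are 42 bp apart.

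Promoter peaks were more frequent among head-to-head genes. With a head-to-head TSS, 24 of the 32 splicing and 3′ processing genes (75.0%) had one, against 54.6% of protein-coding genes. Among genes without such a TSS it was 3 of 5 (60.0%), at U2A, SmF and tsu, against 17.7% of protein-coding genes. The difference between the shares was thus 73.0% against 31.0% over all genes and 75.0% against 54.6% among head-to-head genes. How much of it belongs to the arrangement was not tested.

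**Figure D3:**
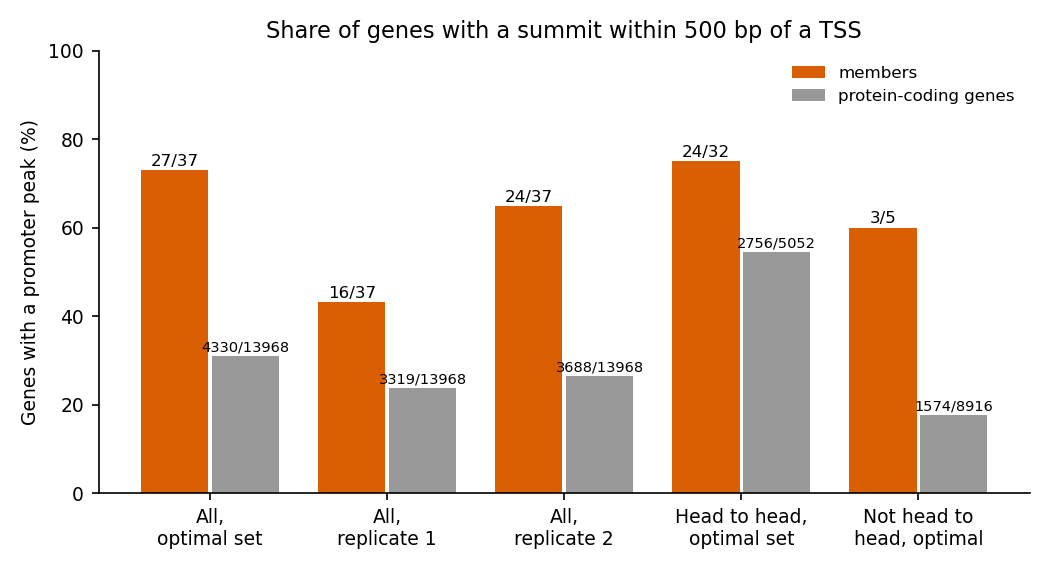
Percentage of genes with a peak summit within 500 bp of a TSS, for the splicing and 3′ processing genes (left bar of each pair) and for protein-coding genes (right bar), with the counts above the bars. The left bar is the taller in every pair, and the gap is narrower for head-to-head genes (75.0% against 54.6%) than for all genes (73.0% against 31.0%).

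The replicates differed at these genes more in one direction. Of the 27 genes with a promoter peak, 14 were in both replicate sets, 9 in that of replicate 2 only (B52, Srp54, Sf3a1, noi, SmD2, SmF, Prp3, Prp38 and sbr), 2 in that of replicate 1 only (x16 and Prp31) and 2 in neither (U2A and Prp18). The set of replicate 2 also held more of all protein-coding genes. It had 3688 of them, against 3319 in that of replicate 1, with 2942 in both. Where ranked peaks below the threshold were used as well, so that every gene had a value from each replicate, the signal was higher in replicate 2 at 22 of the 27 genes (81.5%), against 47.8% of the protein-coding genes with both values. The median log2 ratio of replicate 2 over replicate 1 was 0.26 (quartiles 0.06 and 0.61), against -0.02 for protein-coding genes (quartiles -0.32 and 0.32). It ran from -0.81 at SC35 to 1.25 at SmD2, where the ranked signals were 99.0 in replicate 2 and 41.5 in replicate 1. For both genes the peaks compared did not share a summit. At SmD2 the replicate 1 summit was 203 bp from the TSS, against 50 bp in replicate 2. At SC35 the replicate 2 value was 93.1, from a summit 91 bp from a TSS. The replicate 2 peak nearer to the optimal summit of SC35 had 77.4. The 5 genes with the higher value in replicate 1 were U2af50, SC35, tsu, Prp31 and sbr. Membership of a set follows the IDR and not the signal alone. At sbr, in the set of replicate 2 only, the ranked signals were 64.7 in replicate 1 and 48.4 in replicate 2. At x16, in that of replicate 1 only, they were 51.2 in replicate 1 and 55.3 in replicate 2. Srp54, counted among the 22, had 50.7 in replicate 1 and 50.8 in replicate 2.

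Protein-coding genes with signals in the same range also had a median above 0, but a smaller one. Within the quartiles of the members' signal, the median log2 ratio was 0.61 over 13 of the genes, against 0.09 over 1211 protein-coding genes. Read depth per replicate was not known, and its part in these ratios was not tested.

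**Figure D4:**
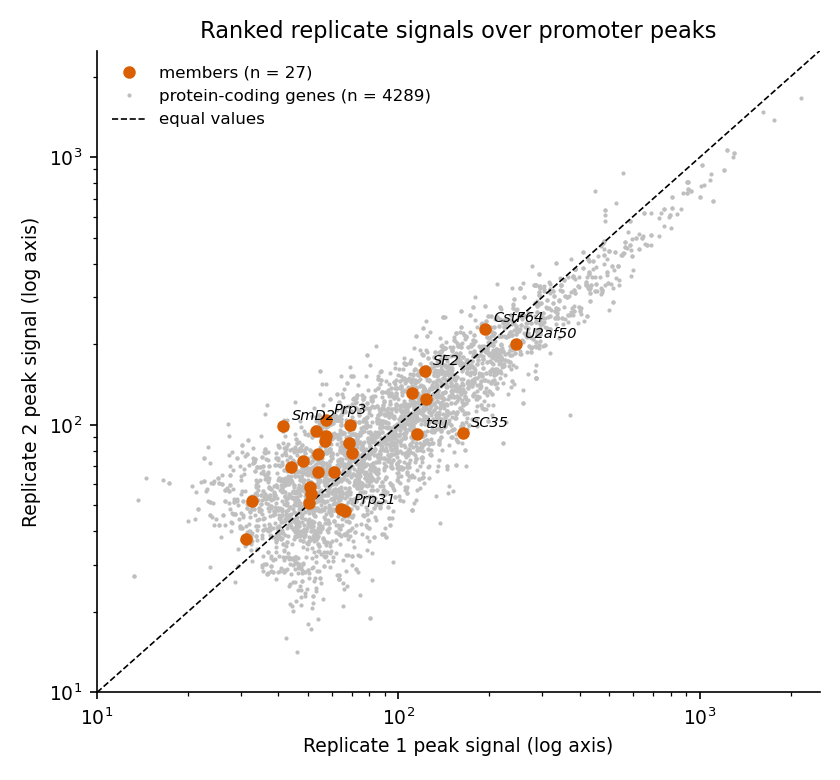
Signal of the ranked peak over each promoter peak in replicate 2 (vertical log axis) against replicate 1 (horizontal log axis), with the line of equal values. Large points are the 27 splicing and 3′ processing genes and small points are 4289 protein-coding genes; 22 of the 27 large points lie above the line, with SC35 furthest below it and SmD2 furthest above.

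The 10 genes with no promoter peak in the optimal set were not alike in the ranked tables, which also hold peaks that failed the threshold. SmB and SmD1 had no ranked peak within 500 bp of a TSS in any of the 4 tables, and the nearest optimal summits were 4367 and 58519 bp upstream. Both are head-to-head genes, with KdelR 260 bp and Ptp69D 334 bp away. SmE had none in the pooled tables, but a peak of 50.01 in the set of replicate 2, with the summit 21 bp from its TSS and a global IDR of 0.0040.

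The mago gene had the highest pooled signal of the 10, 77.1. That value exceeded that of U2A (66.0), the weakest member inside the optimal set, and it passed in the conservative set, where replicates are compared, with an IDR of 0.0061. In the comparison of random splits behind the optimal set its IDR was 0.19. The summit lay 21 bp from the TSS in the 5′ UTR of mago.

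The other 6 genes had weaker ranked peaks, none past the threshold. The highest pooled signal within 500 bp of a TSS was 54.5 at CstF50, whose protein joins CstF64 in the cleavage factor, 46.7 at Cpsf160, the CPSF scaffold, 45.8 at tra2, 41.4 at Sf3b3, 32.7 at Prp8 and 12.8 at Nxt1. In the table of random splits, the lowest global IDR among the ranked peaks there was 0.12 at CstF50, 0.13 at Cpsf160, 0.17 at tra2, 0.49 at Sf3b3, 0.19 at Prp8 and 0.85 at Nxt1. Other ranked tables gave lower values at some of them, down to 0.042 at Sf3b3 and 0.062 at Cpsf160 in replicate 2 and 0.091 at CstF50 between the replicates. A gene without a called peak is thus one where binding was not detected at this threshold, not one shown to lack it.

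Sequence words known from Drosophila promoters were counted on both strands in 200 bp centred on the summit. DRE, the site of the factor DREF (TATCGATA), was in 5 of the 27 windows (18.5%), against 10.2% of the 3611 promoter summits of protein-coding genes. The genes were SF2, B52, snf, U2A and Sf3b2. The BEAF-32 core CGATA, which lies within every DRE, was in 17 (63.0%), against 44.5%. GGTCACACT, the M1BP motif (Ohler 1), was in 4 (14.8%), at Sf3b1, SmF, Prp3 and Cpsf73, against 8.17%. No window held both DRE and the M1BP motif.

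The sites are printed with 10 bases on either side for 4 of the DRE genes and 3 of the M1BP motif genes, since DRE and the M1BP motif belong to 2 classes of housekeeping promoter, and they were chosen after the counts were seen. Capitals mark DRE, which reads alike on both strands.
SF2 (3R:16342072-16342099, plus strand): tcgttgcttaTATCGATAgctaccctgt
B52 (3R:13661236-13661263, plus strand): ccgcccaaaaTATCGATAggcgaaaaag
snf (X:5309223-5309250, plus strand): tgcgataacaTATCGATAgaccgcccca
Sf3b2 (2L:3029177-3029204, plus strand): caccgagacaTATCGATAtattcgatat
These DRE sites lie 47 bp from the summit at SF2, 22 bp at B52, 53 bp at snf and 3 bp at Sf3b2. Their centres are 97 bp upstream of the TSS at SF2, 62 bp at B52, 6 bp at snf and 22 bp at Sf3b2.

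In the sites below, capitals mark the M1BP motif.
Sf3b1 (2L:568312-568340, plus strand): atatgtatttGGTCACACTtagaccaggc
Prp3 (3L:19910265-19910293, plus strand): aaagcgaaacGGTCACACTggcgacatga
Cpsf73 (3R:18663516-18663544, minus strand): atcaaactttGGTCACACTgccgtgcaca
The motif lies 70 bp from the summit at Sf3b1, 2 bp at Prp3 and 95 bp at Cpsf73. Its centre is 14 bp upstream of the TSS at Sf3b1 and 21 bp upstream at Prp3, and it is 22 bp downstream at Cpsf73.

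The other words went both ways, and the initiator differed from all promoter summits by more percentage points than DRE or the M1BP motif did. GTATTTTT (Ohler 6) was in 3 windows (11.1%), at x16, U2af50 and CstF64, against 6.42%, and CATCNCTA (Ohler 7) in 3 (11.1%), at U2A, Sf3a1 and Sf3b2, against 7.73%. TATAAA was in 10 (37.0%), against 30.0%. Lower shares than among all promoter summits were found for CAGCTG (11.1%, against 14.8%), GAGAG (14.8%, against 20.2%) and the initiator TCAGT (18.5%, against 31.5%). CAGGTAG, the site of Zelda, and CACACACA were in no window, against 0.803% and 2.82%. Median GC content was 36.5% in the windows of the 27 genes, a difference of -1.5 percentage points from all promoter summits. A word is a description of the letters, not evidence of a bound factor.

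**Figure D5:**
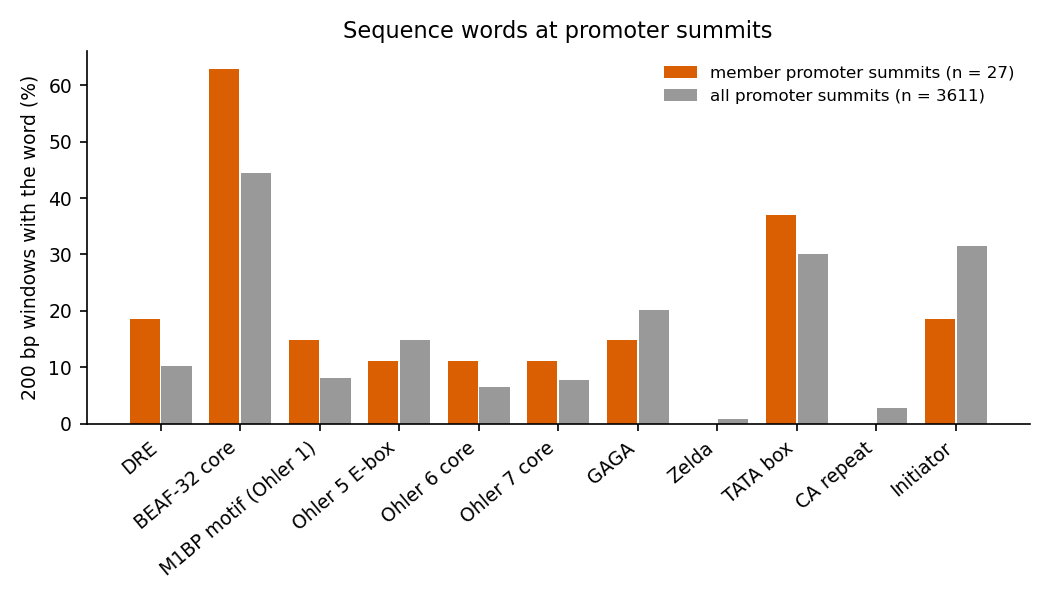
Percentage of 200 bp windows at promoter summits that hold each of 11 sequence words on either strand, for the 27 splicing and 3′ processing genes (left bars) and for all 3611 promoter summits of protein-coding genes (right bars). The left bar is the taller for DRE, the BEAF-32 core and the M1BP motif and the shorter for GAGA and the initiator.

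Other genes of the same pathways, which are not among the 37, gave lower shares. Of 40 other splicing genes in the annotation, 24 (60.0%) had a promoter peak, with a median signal of 180, against 31.0% of protein-coding genes. The strongest were at Slu7 (413), which acts late in splicing, snRNP-U1-C (396), a U1 protein gene, and the SF3b genes Phf5a (385) and Sf3b6 (382). Of 31 other genes of 3′ processing, the exon junction complex and export, 17 (54.8%) had a promoter peak, with a median of 176. The strongest were at IntS11 (620), the Integrator endonuclease gene, Cpsf5 (339), Acn (296) and the cap-binding Cbp20 (272).

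Some of these other genes also had peaks away from their own promoters, which the 37 genes lacked in the optimal set. More than 500 bp from a TSS of their own, 7 of the 40 and 3 of the 31 genes had a summit inside the gene, against 0 of the 37 and 8.83% of protein-coding genes. The 3 of 31 is near the share of protein-coding genes. The strongest were intronic, at mub (752), the muscleblind gene mbl (464, also in an exon of lncRNA:CR45997), Prp16 (300) and ps (289). These 4 values were picked for their size. Both mbl (2R:17216549-17379376) and Prp16 (X:14201362-14224732) are longer than any of the 37 genes, of which the longest is 14341 bp. The part of gene length was not tested.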

How the data were processed

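CG3847-eGFP was mapped by ChIP-seq in 2 libraries of whole embryos, biological replicates 1 and 2 of 1 group. On dm6, the authors deposited 4 sets of peaks past a threshold and 4 ranked tables, all from the IDR procedure. Neither aligner, peak caller nor read depth is stated in the sources used here. The score in the deposited files rescales the IDR to a maximum of 1000, with 830 as the lowest value of each set past the threshold, which is a global IDR of 0.01. The signal column, deposited by the authors, holds a value from their peak caller on an unstated scale. It was compared within a list, except for the ratio of replicate 2 over replicate 1, which was set beside that of protein-coding genes in the same lists. In the ranked tables the authors give the global IDR as −log10 values, capped at 5. Summit positions come from the summit offset in bp that the authors deposited. The optimal set matched the ranked table of random splits of the pooled data (100% of 6148 peaks on the major chromosomes) and the conservative set that of the replicates (100% of 5961 peaks).

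Genes and TSSs came from Ensembl release 115 (FlyBase 6.54), and sequences from the RefSeq Release 6 genome, whose chromosome lengths hold every peak. A promoter peak has its summit within 500 bp of any TSS, and the strongest one stands for its gene. Cpsf100, Prp18 and sbr each had 2 promoter peaks in the optimal set. For each optimal promoter peak, the strongest overlapping ranked peak of each replicate (at least 1 bp) gave the replicate ratio, wherever its summit lay. Head-to-head genes have an upstream protein-coding TSS on the other strand within 1000 bp. Work used Python 3.11.15, pandas 2.3.3, numpy 2.4.6 and matplotlib 3.10.9, and the assignment of peaks to genes was tested on simulated data.

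Every gene of the list is named, the 10 strongest in full and sequences for the 5 strongest that do not lie on 2R, with the 4 strongest promoter peaks of each list of other pathway genes. The members, gene lists and words were chosen with earlier results of these data known, so no test was run on them. Of 53 and 35 symbols of other pathway genes, 40 and 31 were in the annotation and the rest were dropped. Alternatives were the conservative set, a global IDR of 0.001, the stronger 50% of the peaks, each replicate alone, windows of 200 and 1000 bp, 1 TSS per gene, overlap rules and head-to-head genes left out.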

Additional observations from a re-analysis of the deposited data

How the results depend on the processing

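The count of 27 genes with a promoter peak was 25 in the conservative set, 19 at a global IDR of 0.001 and 15 with the stronger 50% of the peaks. It was 24 and 28 with windows of 200 and 1000 bp. For the stricter IDR, the stronger 50% and these windows, no share of protein-coding genes is given here. Those counts describe the members alone. Without the head-to-head genes the count was 3 of 5 (60.0%), against 17.7% of protein-coding genes without such a TSS. With each replicate left out the count was 16 to 24. Without replicate 2 it lost B52, Prp18, Prp3, Prp38, Sf3a1, SmD2, SmF, Srp54, U2A, noi and sbr. The count without a promoter peak, 10 in the optimal set, was 13 to 21 with a replicate left out, 18 at the stricter IDR and 22 with the stronger 50%. The median signal of 139 was 169 with the stronger 50%, and 69.5 to 89.0 in the lists of single replicates, which have their own scale. The median summit position of -83 bp was -74 bp within 200 bp and -90 to -80 bp with a replicate left out. The share of summits upstream stayed between 91.7% and 100%, and the share with CGATA between 56.2% and 79.2%. The 1 gene with a summit in its span became 2 in the conservative set, 1 to 5 with a replicate left out, 24 when any base of a peak counted, and 0 without 500 bp around each TSS. The low share against protein-coding genes is thus stated for summits only. It did not hold in the set of replicate 2, with 13.5% against 11.2% of protein-coding genes. The 14 genes in both replicate sets were 13 where replicate peaks had to overlap 50% of the optimal peak. After the data were seen, SmG was also counted as SNRPG (28 genes), and replicate peaks were also matched by TSS, which left 22 genes higher in replicate 2. The causes of these changes were not tested. No paired analysis was possible because there was 1 group. Depth is not given, so the smallest detectable peak is unknown.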

Other observations

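Some of these genes lie next to each other, a point noticed after the values were seen. CstF64 (3R:18659618-18661126) and Cpsf73 (3R:18661121-18663552) run towards each other and overlap by 6 bp at their ends, so that their separate promoter peaks, with signals of 426 and 168, flank the pair. Cpsf100, with a promoter peak of 131, overlaps the end of Slu7, with one of 413, by 5 bp. Sf3b2 overlaps the end of Prp40, another splicing gene, by 188 bp. Divergent promoters joined splicing genes in 2 places: x16 and Hrb27C have TSSs 494 bp apart over a single shared peak of 105, and B52 has its TSS 780 bp from that of Hrb87F with its own peak of 118.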
